A study of Mus musculus with 12 samples.

Results

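The globin genes are the subject of these measurements, namely the embryonic Hbb-y, Hbb-bh1 and Hba-x and the adult-type Hba-a1, Hba-a2, Hbb-bs and Hbb-bt. These 7 genes were taken by symbol from a table of 47072 gene rows, and all 7 were among the 18319 genes with enough reads to be tested. They were chosen by the measured levels of Hbb-y, which was present in the embryo (E13.5, in embryonic days) and at 0 after birth (P7, in postnatal days). The levels at the 2 ages are therefore given as a description, without a test, and tests are given only for the difference between regions.

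Expression was measured by stranded total RNA-seq of cells sorted for green fluorescence from Pdgfra-H2BGFP mice. In this line a histone-tagged GFP is made from the Pdgfra locus, which marks oligodendrocyte precursor cells (OPCs) and, in the embryo, other progenitors and cells of the pericyte and meningeal lineages. The 12 libraries form 4 groups of 3, which are brain at E13.5, spinal cord at E13.5, brain at P7 and spinal cord at P7. Every group carries the same reporter allele and no other treatment. Brain was taken as forebrain according to the methods of the study, every library was made of cells pooled over several animals, and the tissue was dissociated mechanically at E13.5 and with papain at P7, so that age and dissociation cannot be told apart. The stable fluorescent protein can also stay in cells that have begun to differentiate and no longer make Pdgfra RNA. The levels are given as CPM, read counts scaled to a common library size.

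Haemoglobin is a tetramer of 2 alpha-like and 2 beta-like chains. In the mouse the alpha-like genes Hba-x, Hba-a1 and Hba-a2 lie together on chromosome 11, and the beta-like genes Hbb-y, Hbb-bh1, Hbb-bs and Hbb-bt on chromosome 7. Primitive red cells from the yolk sac use the embryonic genes together with adult-type ones, whereas definitive red cells, made first in the fetal liver and later in the bone marrow, use the adult-type genes only. At mid-gestation both kinds circulate, and primitive cells are later replaced. Globin RNA has also been described in neurons and glia, and the sorted cells were therefore examined for other red cell genes.

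On the GRCm38 build Hbb-y (ENSMUSG00000052187) spans chr7:103851749-103853216, Hbb-bh1 (ENSMUSG00000052217) chr7:103841637-103843164, Hbb-bs (ENSMUSG00000052305) chr7:103826534-103828096 and Hbb-bt (ENSMUSG00000073940) chr7:103812524-103813996, all on the minus strand. Hba-x (ENSMUSG00000055609) spans chr11:32276400-32278116, Hba-a1 (ENSMUSG00000069919) chr11:32283511-32284465 and Hba-a2 (ENSMUSG00000069917) chr11:32296489-32297298, all on the plus strand. The coding sequences show which members a read can tell apart. A stretch of coding bases 358 to 417, which lies within 1 exon of each beta-like gene, is shown here. It was picked because it holds the only coding base at which Hbb-bs and Hbb-bt differ. Capitals mark bases that differ from Hbb-bs.
Hbb-bs, chr7:103826692-103826751, minus strand: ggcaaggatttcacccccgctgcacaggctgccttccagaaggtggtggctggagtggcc
Hbb-bt, chr7:103812683-103812742, minus strand: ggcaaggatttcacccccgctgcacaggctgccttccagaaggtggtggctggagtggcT
Hbb-y, chr7:103851901-103851960, minus strand: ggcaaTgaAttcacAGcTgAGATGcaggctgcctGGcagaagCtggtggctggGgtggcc
Hbb-bh1, chr7:103841779-103841838, minus strand: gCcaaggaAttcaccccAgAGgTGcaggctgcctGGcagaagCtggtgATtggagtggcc

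In this stretch Hbb-bt differed from Hbb-bs at 1 base, Hbb-y at 14 and Hbb-bh1 at 12. Over the 444 coding bases Hbb-bs and Hbb-bt differed at 1 base and Hbb-y was 74.3% identical to Hbb-bs. The 429 coding bases of Hba-a1 and Hba-a2 also differed at 1 base, the 381st from the start codon, and Hba-x was 62.0% identical to Hba-a1. Of the 150-base windows of the Hbb-bs transcript 58.7% occurred unchanged in Hbb-bt, and of those of Hba-a1 48.4% occurred in Hba-a2. No such window was shared by an embryonic gene with any other member. Reads mapping to several places were shared fractionally by the authors, so the split within each adult-type pair is uncertain, while the embryonic genes could not take windows of this length from the adult-type ones.

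The bases just before the start sites are shown because 6 of the 7 members have an entry in RefSeq's promoter table (GRCm38.p6) and because the embryonic and adult-type members had different levels at P7. Each line gives the 120 bases before RefSeq's start. For all 6 that start lies inside the GENCODE gene span given above, and for Hba-x, Hba-a1 and Hbb-bs the whole window does. Capitals mark motifs on either strand. These were the CACCC box, the CCAAT box, the TATA box (spelled TATAA, or ATAAA as a variant that can overlap it) and the GATA motif (spelled AGATAA in one form and TGATAA in the other).
Hbb-y, chr7:103853208-103853327, minus strand: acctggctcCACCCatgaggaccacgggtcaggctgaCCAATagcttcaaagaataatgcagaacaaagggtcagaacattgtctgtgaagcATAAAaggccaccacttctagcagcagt
Hba-x, chr11:32276480-32276599, plus strand: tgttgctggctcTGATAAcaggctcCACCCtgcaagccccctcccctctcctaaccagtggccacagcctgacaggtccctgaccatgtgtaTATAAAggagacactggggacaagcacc
Hba-a1, chr11:32283552-32283671, plus strand: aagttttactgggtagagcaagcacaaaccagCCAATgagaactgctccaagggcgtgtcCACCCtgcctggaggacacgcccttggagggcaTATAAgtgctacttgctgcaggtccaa
Hba-a2, chr11:32296372-32296491, plus strand: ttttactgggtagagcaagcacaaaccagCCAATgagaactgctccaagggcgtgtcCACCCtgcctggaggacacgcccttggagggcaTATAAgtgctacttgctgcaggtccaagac
Hbb-bs, chr7:103827929-103828048, minus strand: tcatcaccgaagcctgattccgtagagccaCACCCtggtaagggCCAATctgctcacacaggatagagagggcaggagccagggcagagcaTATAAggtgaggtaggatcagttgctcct
Hbb-bt, chr7:103813924-103814043, minus strand: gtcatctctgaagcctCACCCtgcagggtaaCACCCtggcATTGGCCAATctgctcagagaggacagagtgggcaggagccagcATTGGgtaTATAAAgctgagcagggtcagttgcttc

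All 6 windows held a CACCC motif, which 31.7% of 32851 promoter windows of the same length held. CCAAT was in 5 of the 6, all but Hba-x, against 21.3% of all windows. TATAA was in 5 of the 6 against 11.8% of all windows, and Hbb-y held ATAAA at 28 bases before the start, a motif in 20.2% of all windows. Of the GATA motifs, AGATAA was in none of the 6 and TGATAA was in Hba-x alone, 108 bases before its start. They were in 4.36% and 3.55% of all windows. The windows of Hba-a1 and Hba-a2 shared a run of 117 bases, and those of Hbb-bs and Hbb-bt a longest run of 14. The matches describe the letters only.

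Embryonic libraries are those of E13.5, and postnatal ones those of P7. At E13.5 Hbb-y, the beta-like chain of primitive red cells, had the highest level of the globins, also per length. Its level was 29.1, 21.0 and 54.9 CPM in the 3 brain libraries and 34.2, 34.7 and 69.3 CPM in the 3 spinal cord libraries, in the order of their replicate numbers. At P7 it had 0 reads in all 6 libraries. Over the 188942062 reads recovered from these 6 libraries no read was assigned to any of the 3 embryonic genes. Set against a limit of 3 reads over the 3 libraries of a group, Hbb-y was at least 1179.5-fold lower at P7 than at E13.5 in brain and at least 1562-fold lower in spinal cord.

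Hbb-bh1, the other embryonic beta-like chain, was scarce. Its level was 0.38, 0.044 and 1.13 CPM in embryonic brain and 0.48, 0.89 and 3.21 CPM in embryonic cord, and the brain values rested on 8, 1 and 21 reads. The highest of each region was in replicate 3. Hba-x, the embryonic alpha-like chain, stood at 1.43, 1.19 and 3.43 CPM in embryonic brain and at 2.92, 2.62 and 5.06 CPM in embryonic cord. Hba-x was at least 67.9-fold lower at P7 in brain and at least 119.8-fold lower in spinal cord, and for Hbb-bh1 these limits were 17.4-fold and 51.6-fold. All 3 genes had reads in every E13.5 library and none in any P7 library. For Hbb-y this pattern is how the members were chosen.

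The adult-type genes had reads in every library. Hba-a1, an adult alpha chain gene, stood at 15.01, 8.17 and 14.6 CPM in embryonic brain, 10.5, 14.0 and 22.6 in embryonic cord, 6.45, 6.02 and 11.9 in postnatal brain and 2.84, 2.75 and 1.61 in postnatal cord. Its near-copy Hba-a2 stood at 11.6, 5.93 and 10.2 CPM in embryonic brain, 8.28, 10.98 and 17.5 in embryonic cord, 5.21, 4.96 and 9.88 in postnatal brain and 2.21, 2.41 and 1.49 in postnatal cord. For both genes P7 brain overlapped E13.5 brain, and P7 spinal cord lay below every other library.

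Hbb-bs, an adult beta chain gene, had levels of 17.0, 8.26 and 9.06 CPM in embryonic brain, 6.79, 15.5 and 17.5 in embryonic cord, 15.8, 15.6 and 28.0 in postnatal brain and 6.13, 5.58 and 3.82 in postnatal cord. Hbb-bt, the other adult beta chain gene, had 8.93, 4.39 and 7.13 CPM in embryonic brain, 5.18, 9.16 and 12.8 in embryonic cord, 4.39, 4.66 and 8.61 in postnatal brain and 2.30, 1.79 and 0.93 in postnatal cord. Hbb-bs in postnatal brain overlapped its E13.5 values from above, and both genes were lowest in postnatal cord.

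**Figure D1:**
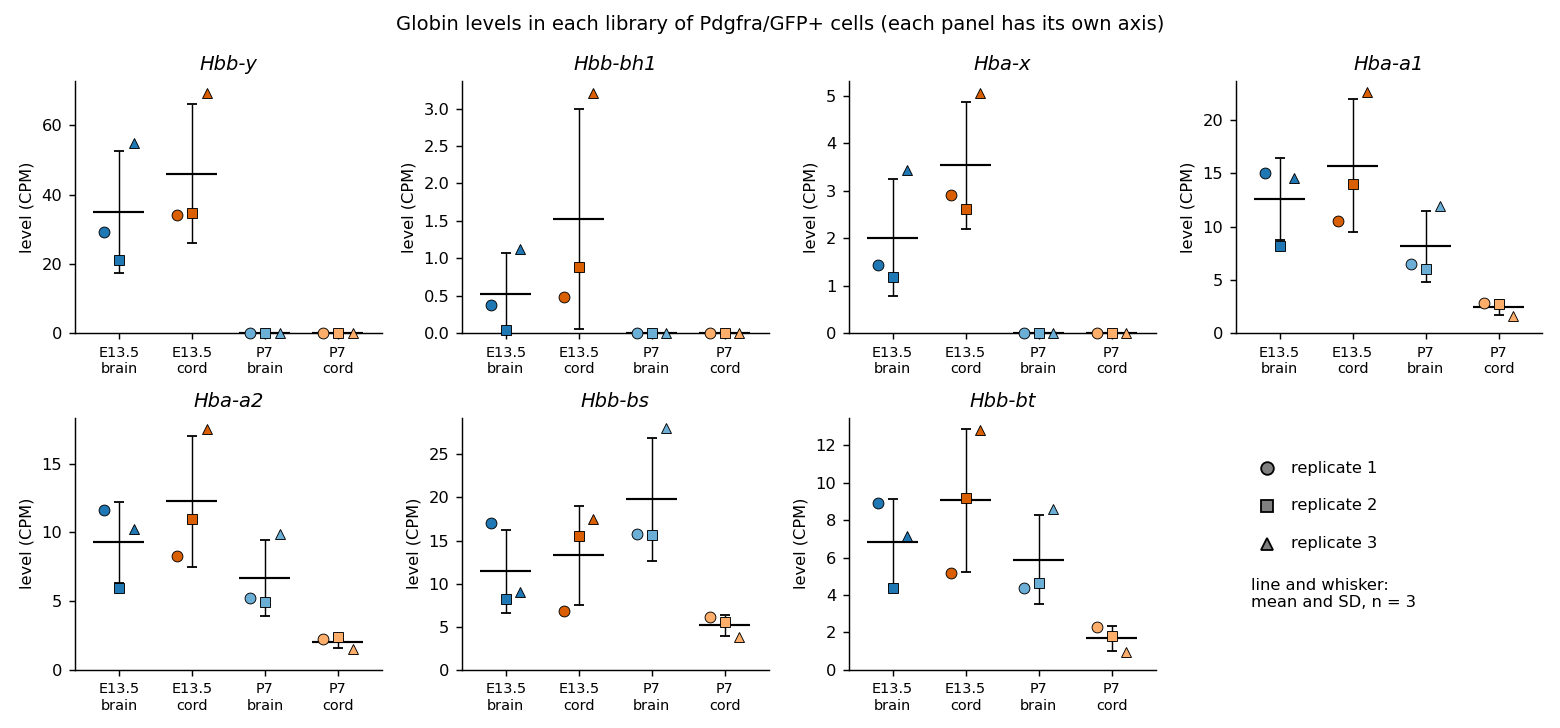
Level of each globin gene in CPM (vertical axis, 1 scale per panel) in the 12 libraries, by group; circles, squares and triangles are replicates 1, 2 and 3, and lines and whiskers are the mean and SD of 3 libraries. The 3 embryonic genes are at 0 in all P7 libraries, and the 4 adult-type genes are lowest in postnatal cord.

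As a description of the change with age on the log2(CPM + 0.5) scale, P7 minus E13.5 in brain was -6.04 for Hbb-y, -2.22 for Hba-x and -0.88 for Hbb-bh1. For the adult-type genes it was -0.62 (Hba-a1), -0.46 (Hba-a2), 0.78 (Hbb-bs) and -0.20 (Hbb-bt). In spinal cord the same differences were -6.46, -2.96 and -1.78 for the embryonic genes in that order. There the adult-type genes differed by -2.44 (Hba-a1), -2.29 (Hba-a2), -1.20 (Hbb-bs) and -2.11 (Hbb-bt). Adding 0.5 compresses the values of scarce genes such as Hbb-bh1. Of all genes tested, 27.7% were called for age in brain (11% higher and 16.7% lower at P7) and 35.1% in spinal cord (16.9% higher and 18.2% lower) by limma, at an adjusted p under 0.05 and more than 2-fold, and nothing is read from these shares for the globins.

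For the order of the globins among themselves, levels were divided by exon length. In E13.5 brain Hbb-y had 55.3 ± 27.9 CPM per kb (SD, n = 3) and no library of it overlapped the next gene. Hba-a1 (15.5 ± 4.72), Hbb-bs (14.9 ± 6.30), Hba-a2 (13.9 ± 4.46) and Hbb-bt (9.70 ± 3.25) overlapped each other, followed by Hba-x (2.15 ± 1.32) and Hbb-bh1 (0.84 ± 0.90). In E13.5 spinal cord Hbb-y had 72.8 ± 31.8 CPM per kb, the adult-type genes lay between 12.9 ± 5.44 (Hbb-bt) and 19.3 ± 7.68 (Hba-a1), and the order of the groups of genes was the same. At P7 Hbb-bs came first, with 25.8 ± 9.28 CPM per kb in brain and 6.74 ± 1.57 in spinal cord, and overlapped no other gene in either. Hba-a1 and Hba-a2 followed at 10.0182 ± 4.06 and 10.0174 ± 4.15 in brain and at 2.95 ± 0.84 and 3.05 ± 0.73 in spinal cord, and Hbb-bt was at 8.37 ± 3.36 and 2.38 ± 0.98. Hba-a1, Hba-a2 and Hbb-bt were within the spread of their neighbours at P7.

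Within the beta-like reads the embryonic genes held the larger share at E13.5. Their share was 53.2%, 62.5% and 77.6% in the 3 brain libraries and 74.3%, 59.1% and 70.5% in the 3 spinal cord libraries, over 610 to 1355 beta-like reads each. The 95% Wilson interval of the lowest brain value ran from 50.3% to 56.0% and that of the highest from 75.3% to 79.7%. These intervals did not overlap, but they take every read as independent and so may be too narrow. The means, 64.4% ± 12.3 in brain and 68.0% ± 7.91 in spinal cord, differed by less than the spread between replicates. Hbb-y made up nearly all of it, 98.8% ± 0.91 of the embryonic beta-like reads in brain and 97.2% ± 1.54 in spinal cord.

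Within the alpha-like reads the embryonic share was much smaller. Hba-x held 5.08%, 7.76% and 12.1% of them in embryonic brain and 13.46%, 9.50% and 11.2% in embryonic cord, and the regions overlapped through the highest brain library. With 3 libraries against 3 an exact permutation test cannot go below p = 0.10, so these shares were not tested. At P7 both shares were 0 in every library. The limit that a count of 0 allows for the embryonic beta-like share lay between 0.22% (P7 brain replicate 3, 0 of 1388 reads) and 1.96% (P7 spinal cord replicate 3, 0 of 153 reads). Such intervals and limits describe counting error alone, as PCR copies of a molecule are not independent.

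**Figure D2:**
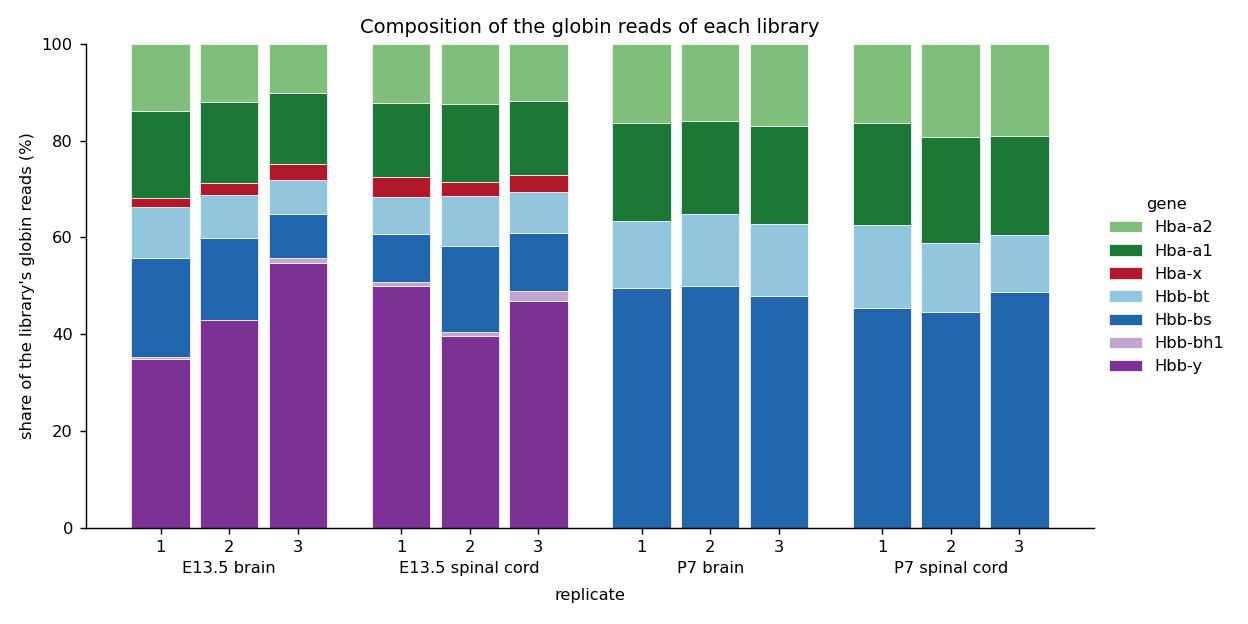
Share of the library's globin reads (vertical axis, percent) held by each of the 7 genes in the 12 libraries, with replicate numbers on the horizontal axis. The embryonic genes hold 37.0% to 59.2% of the globin reads in the E13.5 libraries and none in the P7 libraries, where Hbb-bs holds the largest part.

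The balance of beta-like and alpha-like reads also differed between the ages. It is given in reads, not per length, for comparison between libraries only. Reads of the adult beta pair divided by those of the adult alpha pair gave 0.97, 0.90 and 0.65 in embryonic brain and 0.64, 0.99 and 0.76 in embryonic cord. At P7 the ratio was 1.73, 1.85 and 1.68 in brain and 1.67, 1.43 and 1.53 in spinal cord, above every E13.5 library. With the embryonic genes counted in, beta-like over alpha-like reads came to 1.97 to 2.55 at E13.5 and stayed at 1.43 to 1.85 at P7. The adult-type ratio was thus lower at E13.5 than at P7, and the ratio over all 7 genes was higher. Hbb-bs held 56.0% to 65.6% of the adult beta reads at E13.5 and 72.8% to 80.4% at P7, and Hba-a1 held 52.0% to 58.7% of the adult alpha reads over all 12 libraries. Both of these splits depend on how reads common to the near-copies were shared out.

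The spread between libraries of a group was wide and common to several members. In E13.5 brain all 7 genes were lowest in replicate 2, the 3 embryonic genes were highest in replicate 3, and the 4 adult-type genes were highest in replicate 1. The highest value of Hbb-y was 2.61 times the lowest in embryonic brain and 2.03 times in embryonic cord. In E13.5 spinal cord all 7 genes were highest in replicate 3. This library stood apart, as protein-coding genes held 41.0% of its reads against 82.4% to 91.2% in the others, and its values had been divided by a library size of 0.47 times its reads. In it 31.1% of reads fell on the gene Gm42418, against 0.52% and 0.26% in replicates 1 and 2. As a share of all reads, with Gm42418 counted in, its globins came to 0.00699%, below the 0.00775% and 0.0105% of replicates 1 and 2. Its place among them thus depends on whether all reads or the rescaled library size is the divisor. At P7 replicate 3 was the highest brain library and the lowest spinal cord library for all 4 adult-type genes. Replicates 1 and 2 were close to each other in both regions, with a log2 ratio of SD 0.069 in brain and 0.075 in spinal cord over 5717 genes, against 0.22 to 0.24 for replicate 3 with either. The methods of the study call the libraries pooled biological replicates. How animals were divided between the pools is not given in the sources used here, so replicates 1 and 2 may not be independent. The libraries held 12566345 to 19903022 reads at E13.5 and 25276708 to 38790312 at P7. In each region 6 of 6 OPC markers were called higher at P7 than at E13.5, beside 11% of all genes in brain and 16.9% in spinal cord.

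Brain was compared with spinal cord at each age by limma on log2(CPM + 0.5), with p adjusted by the Benjamini-Hochberg method over all genes tested. These p-values measure only the spread between libraries made from pooled cells. At E13.5 none of the 7 globins was called, where 8.71% of all genes were (3.53% higher and 5.17% lower in brain). edgeR and limma-voom on the recovered reads also called 0, and 1 globin, Hba-x, had an unadjusted limma p under 0.05. All 7 estimates were below 0, that is lower in brain. Hbb-y differed by -0.42 (SE 0.32, adjusted p = 0.341), Hba-x by -0.74 (SE 0.29, adjusted p = 0.0715) and Hbb-bh1 by -0.90 (SE 0.44, adjusted p = 0.141). The adult-type genes differed by -0.17 to -0.37, with adjusted p from 0.415 to 0.757 by limma.

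Single libraries decided some of these estimates. Without E13.5 spinal cord replicate 3 the difference was -0.09 for Hbb-y, 0.0045 for Hba-a1 and 0.07 for Hbb-bs. Without E13.5 brain replicate 3 Hba-x was called, at -1.11 (limma adjusted p = 0.00432), and without E13.5 spinal cord replicate 1 Hbb-bh1 was called, at -1.30 (limma adjusted p = 0.0425). A count of 0 called members at this age is thus not a sign of equal levels.

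At P7 the 4 adult-type genes were all called higher in brain than in spinal cord, where 2.27% of all genes were called in that direction and 4.35% in the other. Each P7 brain library exceeded each P7 spinal cord library for every one of them. Hbb-bs differed by 1.81 (SE 0.36, limma adjusted p = 0.00282) and Hbb-bt by 1.55 (SE 0.37, limma adjusted p = 0.00737). Hba-a1 differed by 1.54 (SE 0.33, limma adjusted p = 0.00437) and Hba-a2 by 1.46 (SE 0.33, limma adjusted p = 0.0054). Since reads common to near-copies were shared, these are better read as 2 measurements than 4. With each pair summed the difference was 1.59 for the alpha pair (limma adjusted p = 0.00365) and 1.81 for the beta pair (limma adjusted p = 0.00267). In bulk RNA, fewer cells of a type and less RNA per cell cannot be told apart.

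The deposited scaling lowers the P7 brain values. In these libraries the authors' scaling factor was 13.1% to 16.3% above the trimmed-mean (TMM) factor recomputed from the reads, which puts the median of all genes at -0.19 for brain minus spinal cord and at -0.02 after TMM rescaling. With TMM rescaling the differences were 1.99 (Hbb-bs), 1.72 (Hbb-bt), 1.71 (Hba-a1) and 1.63 (Hba-a2). Of all genes 416 were called higher and 797 lower in postnatal brain as deposited, and 538 and 619 after TMM rescaling. The 4 calls held without any one library. With P7 replicates 1 and 2 averaged into 1 library, an alternative chosen after seeing the data, they also held, at 1.69 (Hba-a2) to 2.04 (Hbb-bs) with limma adjusted p from 0.0225 to 0.0335. The lowest differences were without P7 brain replicate 3, from 1.16 for Hba-a2 to 1.54 for Hbb-bs.

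The region difference of the adult-type genes changed with age. Brain minus spinal cord in the P7 libraries, less the same in the E13.5 libraries, was 1.83 for Hba-a1 (SE 0.47, limma adjusted p = 0.00867), 1.83 for Hba-a2 (SE 0.46, limma adjusted p = 0.00773), 1.98 for Hbb-bs (SE 0.51, limma adjusted p = 0.00901) and 1.90 for Hbb-bt (SE 0.52, limma adjusted p = 0.0118). In this comparison 6.66% of all genes were called in the same direction and 9.66% in the other, 16.3% in all. The embryonic genes, at 0 in both regions at P7, were not read in it. For all 4 genes the P7 spinal cord libraries lay below every E13.5 library of either region, while the P7 brain libraries overlapped those of E13.5 brain.

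**Figure D3:**
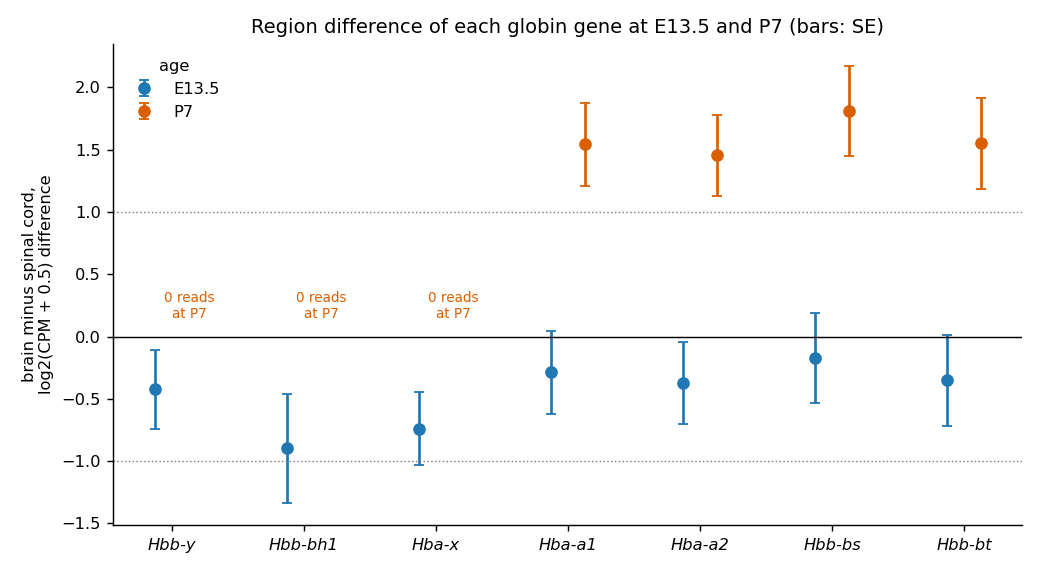
Brain minus spinal cord difference of each globin gene on the log2(CPM + 0.5) scale at E13.5 and at P7, with bars of 1 SE and dotted lines at a 2-fold difference. The 7 values at E13.5 lie between -0.90 and -0.17, and the 4 at P7 between 1.46 and 1.81; the 3 embryonic genes had 0 reads at P7.

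Defining red cell genes had few reads. Alas2, the erythroid form of the first enzyme of haem synthesis, Slc4a1 (band 3), an anion exchanger of the red cell membrane, and the transcription factors Gata1 and Klf1 together summed to 1.54 to 2.63 CPM in embryonic brain and 1.61 to 2.87 in embryonic cord. At P7 they summed to 1.39, 1.19 and 1.29 CPM in brain and 0.70, 0.74 and 0.37 in spinal cord. The highest P7 sum was thus in brain replicate 1, whereas the adult-type globins were highest in brain replicate 3. Gata1 had 0 reads in all P7 libraries. Klf1 had at most 7 reads in any library. Neither of them reached the level needed for a test.

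Alas2 stood at 1.27, 0.89 and 1.03 CPM in postnatal brain and at 0.46, 0.37 and 0.16 CPM in postnatal cord, without overlap. The means were 1.06 and 0.33 CPM. On the log2(CPM + 0.5) scale, where the added 0.5 compresses such low values, the difference was 0.93 (SE 0.26, limma adjusted p = 0.0187) and was not called. Slc4a1 stood at 0.38, 0.97 and 1.45 CPM in embryonic brain, 0.66, 0.76 and 1.52 in embryonic cord, and 0.062 to 0.23 over all P7 libraries. It was called lower at P7 in brain (-1.05, limma adjusted p = 0.00627) and in spinal cord (-1.15, limma adjusted p = 0.0028). At P7 it rested on 2 to 7 reads a library, too few to compare the regions.

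The wider list of erythroid genes did not move as a block. Of 22 listed genes 21 were in the table and 12 were tested, with a median region difference of 0.00 at E13.5 and -0.07 at P7, beside medians of all genes of 0.05 and -0.19. At E13.5 3 were called, beside 8.71% of all genes. Aqp1, a water channel, and Bpgm, which makes 2,3-bisphosphoglycerate, were higher in brain (1.57 and 1.14), and Sptb, the beta spectrin of red cells, was lower (-1.70). At P7 2 were called, Aqp1 higher (1.40) and Sptb lower (-1.08), where 6.62% of all genes were called. With age 5 were called in brain and 6 in spinal cord, beside 27.7% and 35.1% of all genes. Sptb was higher at P7 in both (3.86 and 3.23), as was Ank1, its membrane anchor (1.80 and 1.14), while Gypc, the widely expressed glycophorin C, was lower (-2.02 and -2.72). Sptb and Ank1 are also made in neural cells. At P7 Sptb stood at 40.8 ± 0.98 CPM in brain and 86.6 ± 6.68 in spinal cord, the opposite order to the globins.

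Of 8 erythroid transcription factors 3 were tested. At E13.5 Lmo2 and Zfpm1, those with the highest CPM, stood at 4.92 ± 1.52 and 3.56 ± 0.49 CPM in brain and 8.33 ± 0.53 and 4.49 ± 0.50 in spinal cord. Zfpm1, a partner of GATA factors, was called higher at P7 in brain (1.76) and spinal cord (2.24). Tal1, a factor of early blood and vessel formation, was called lower at P7 in spinal cord (-1.10). Lmo2, a bridging protein of the GATA complex, was called lower in postnatal brain than in postnatal cord (-1.37) and was not called for age in either region.

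All 11 genes of haem synthesis and its mitochondrial transport were tested for the P7 region difference. Alas2, given above, was higher in brain in every library, and 2 genes were called lower in brain. Cpox, which makes protoporphyrinogen, stood at 24.5 ± 5.72 CPM in postnatal brain and 127 ± 20.6 in postnatal cord (difference -2.36, limma adjusted p = 9.84e-07). Slc25a38, a mitochondrial glycine carrier, was also called lower there (-1.13), and no gene of the list was called higher, where 4.35% of all genes were called lower and 2.27% higher. The median of the list was -0.46 beside -0.19 for all genes. With age Cpox and Fech, the ferrochelatase that inserts iron, were called higher in brain (1.47 and 1.05). In spinal cord Cpox (3.94), Fech (1.47), Alad (1.38) and Slc25a38 (1.31) were called higher, and none was called lower in either region. The age comparison over all genes gave calls for 11% (higher at P7) and 16.7% (lower at P7) in brain. For spinal cord these shares were 16.9% and 18.2%.

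Of 12 genes known to regulate globin switching in red cells 11 were tested, and they too are used in neural cells. Bcl11a, a repressor of embryonic globin genes in definitive red cells, fell from 115 ± 10.5 CPM in embryonic brain to 13.8 ± 0.96 in postnatal brain and from 122 ± 9.19 to 11.7 ± 1.80 in spinal cord. Its changes were -3.02 (limma adjusted p = 1.02e-09) and -3.33 (limma adjusted p = 3.55e-10). Lin28b and Igf2bp1, RNA-binding proteins of fetal programmes, and Nr2f2, a nuclear receptor, also fell in brain (-3.96, -6.54 and -2.44) and in spinal cord (-2.38, -6.42 and -2.58). Sox6, which acts beside Bcl11a in red cells and is also used in OPCs, rose in spinal cord (2.44). In total 4 of 11 were called lower in brain and none higher, and 4 lower and 2 higher in spinal cord. Of all genes 16.7% were called lower and 11% higher in brain, and 18.2% lower and 16.9% higher in spinal cord. The list's median was -0.19 in brain and -0.08 in spinal cord, beside -0.19 and 0.12 for all genes. Between regions Myb (1.89) and Sox6 (1.37) were called higher in brain at E13.5, and Lin28b lower in brain at P7 (-1.78).

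Among markers of other cells, those of microglia and macrophages went mostly in the direction of the adult-type globins at P7. Of 8 microglia and macrophage markers 7 were tested and 6 were called higher in postnatal brain than in postnatal cord, with a list median of 1.68, where 2.27% of all genes were called higher. The largest differences were those of Mrc1 (2.19), Cx3cr1 (1.74), Csf1r (1.71) and C1qa (1.68). Their summed level was 33.4, 32.2 and 62.2 CPM in postnatal brain and 23.4, 20.9 and 16.5 in postnatal cord, and no marker was at 0 in either group. The highest and the lowest of these sums fell in the same libraries as those of the globins, replicate 3 of brain and replicate 3 of spinal cord. The exception was Tmem119 (-0.69, limma adjusted p = 0.0579). At E13.5 3 of the 7 were called lower in brain, beside 5.17% of all genes, and the sums were 19.9 to 32.6 CPM in brain and 58.8 to 81.0 in spinal cord. Tmem119 alone averaged 17.4 of 26.3 CPM in embryonic brain and 44.0 of 66.6 in embryonic cord. In postnatal brain it averaged 6.63 of 42.6 CPM and in postnatal cord 10.9 of 20.3. Outside postnatal brain the sums thus rest largely on this gene, the exception at P7.

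Endothelial markers summed to 30.2 to 39.7 CPM in postnatal brain and 26.3 to 31.2 in postnatal cord. Between the P7 regions 1 of 8 was called, lower in brain, where 4.35% of all genes were called lower and 2.27% higher. At E13.5 they summed to 55.9 to 91.8 CPM in brain and 119.7 to 146.1 in spinal cord. The highest and the lowest of the P7 sums were again in brain replicate 3 and spinal cord replicate 3. With age 7 of 8 were called lower in spinal cord, beside 18.2% of all genes, and 2 lower and 1 higher in brain, beside 16.7% and 11%. Pericyte and leptomeningeal markers ran from 2712 to 6120.21 CPM at E13.5. At P7 they summed to 922, 933 and 1167 CPM in brain. In postnatal cord they summed to 727, 708 and 1418 CPM, with replicate 3 the highest, where the globins were lowest. Neuronal markers averaged 785 and 809 CPM at E13.5 and 389 and 452 at P7 in brain and spinal cord. The part of these other cells in the globin levels was not tested.

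**Figure D4:**
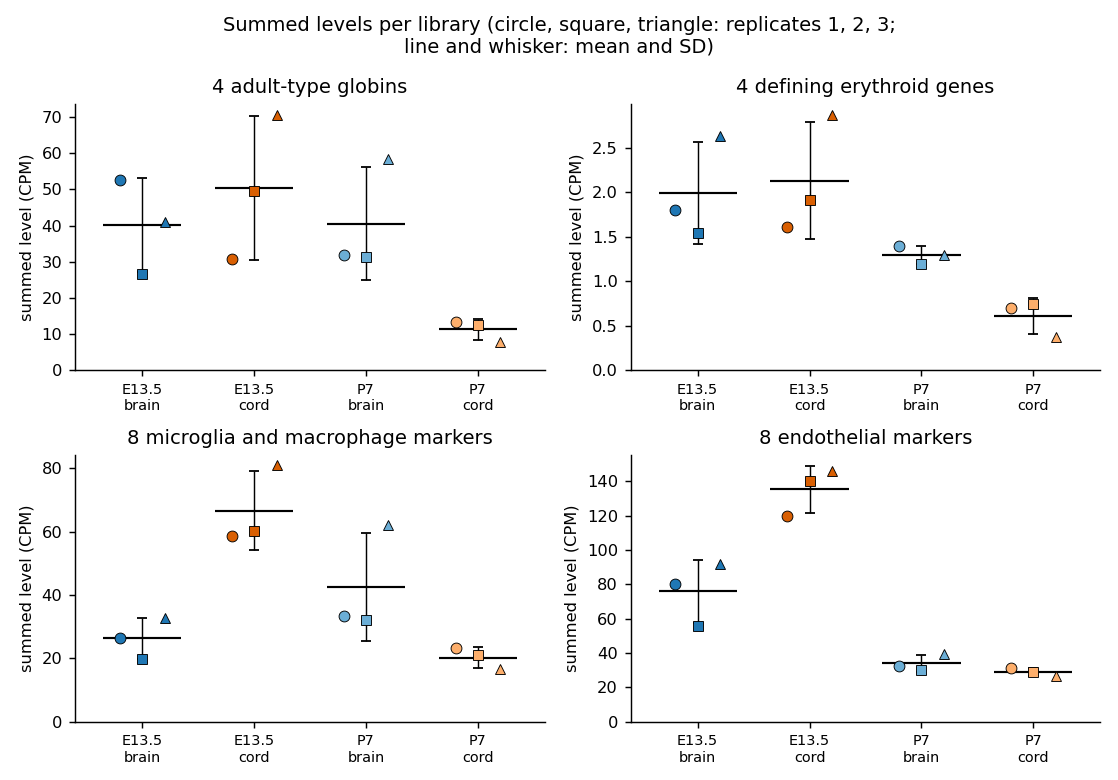
Summed level in CPM (vertical axes from 0) of the 4 adult-type globins, 4 defining erythroid genes, 8 microglia and macrophage markers and 8 endothelial markers in each library, with the mean and SD of 3 libraries. At P7 replicate 3 of brain is highest and replicate 3 of spinal cord lowest for the globins (58.5 and 7.85 CPM), the microglia markers (62.2 and 16.5 CPM) and the endothelial markers (39.7 and 26.3 CPM). For the defining erythroid genes replicate 1 of brain is highest (1.39 CPM) and replicate 3 of spinal cord lowest (0.37 CPM). Outside P7 brain the mean sum of the microglia and macrophage markers rests largely on Tmem119.

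Genes with a pattern like the globins were ranked by Pearson's r of log2(CPM + 0.5) over the 12 libraries, among 12240 genes with at least 5 CPM in a group, which left out all globins and the defining erythroid genes. Closest to Hbb-y were Crabp1 (0.998), Efna4 (0.995), Efnb1 (0.994), Notch3 (0.994) and B4galt1 (0.994). All 5 were higher at E13.5 than at P7, as in Crabp1 with 21.4 ± 5.93 CPM in embryonic brain and 0.13 ± 0.12 in postnatal brain, so this likeness rests on the age of the libraries. For the deviations from the group means, which for Hbb-y come from the 6 E13.5 libraries alone, the closest were Txndc5 (0.978), Calr (0.976), Cnpy2 (0.975), Cd63 (0.972) and Ckap4 (0.970).

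Closest to the sum of Hba-a1 and Hba-a2 over the 12 libraries were C1qtnf1 (0.951), Epb41l4a (0.940), Klhdc7a (0.939), Nyap2 (0.932) and Stmn2 (0.932). These shared the low level in postnatal cord. Stmn2, a neuronal protein, stood at 20.2 ± 2.07 CPM in postnatal brain and 2.17 ± 1.00 in postnatal cord. By deviations from the group means the closest were Fah (0.962), Hs3st1 (0.960), Arhgef28 (0.960), Cpt2 (0.957) and Zbtb7b (0.956). The libraries share depth, age and scaling, and the correlations are a description.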

How the data were processed

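Total RNA was sequenced in 12 libraries of Pdgfra/GFP+ cells. Per the study's methods and the submitters' processing notes, reads were aligned to mm10 with STAR 2.5.0a and counted per GENCODE gene with featureCounts 1.5.0-p1, multi-mapping reads being shared fractionally and the sums rounded. Whether counting used the strand is not given in the sources used here. The authors deposited CPM values relative to a rescaled library size. For 3 columns the deposited values sum to more than plain CPM can, so they are a scaled signal of the same kind rather than plain CPM. No column was left unused (0 columns). All values (100% within a tolerance of 1e-06) were whole multiples of 1 read, so reads were recovered, 12566345 to 38790312 per library. A count of 3 reads equals 0.079 to 0.51 CPM. Symbols and positions came from GENCODE M21 on GRCm38, and symbols were found for 46574 of 47069 identifiers.

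Genes with at least 0.7 CPM in 3 libraries were fitted with limma 3.58.1 (intensity trend) in R 4.3.3 on log2(CPM + 0.5), with 1 mean per group over all 12 libraries. The study used voom, which was run on the recovered reads as an alternative beside edgeR 4.0.16. A gene was called at a Benjamini-Hochberg adjusted p under 0.05 and more than 2-fold. Groups and replicate numbers came from the sample titles. Same-numbered brain and spinal cord libraries deviated together to differing degrees at E13.5 and barely at P7, and those of different ages mostly in opposite directions. No pairing was used in the main fit, and a pairing within E13.5 alone was not tested. Tables and figures were made with Python 3.11.15. The scripts were tested on simulated data.

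The members and the gene lists were chosen with earlier results of these data known. The text names the 7 globins, in each list the called genes with the largest change (up to 4 per comparison) or else the 2 with the highest mean, 4 defining erythroid genes (another is not reported here), and the 5 genes most like Hbb-y and the adult alpha pair by each measure, among genes with at least 5 CPM in a group. Other genes are named where a count needed it. Alternatives were the pseudocount (0.1 and 1), no filter, TMM rescaling, voom, edgeR, the replicate block and each library left out. Averaging P7 replicates 1 and 2 and summing near-identical pairs were added after seeing the data.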

Additional observations from a re-analysis of the deposited data

Results flagged for a closer look

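The region difference of the 4 adult-type globins differed between the ages by the test of that difference itself. Brain minus spinal cord at P7 minus the same at E13.5 was 1.83 for Hba-a1 (limma adjusted p = 0.00867), 1.83 for Hba-a2 (limma adjusted p = 0.00773), 1.98 for Hbb-bs (limma adjusted p = 0.00901) and 1.90 for Hbb-bt (limma adjusted p = 0.0118). Over the alternatives the adjusted p stayed between 0.00146 and 0.0338. Alpha and beta genes are near-copies in pairs, so these are 2 measurements rather than 4. With the pairs summed the values were 1.93 (limma adjusted p = 0.0066) and 2.06 (limma adjusted p = 0.00701).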

How the results depend on the processing

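The number of globins called for region at E13.5 was 0 of 7 and became 1 without brain replicate 3 (Hba-x) or without spinal cord replicate 1 (Hbb-bh1). This number ranged from 0 to 1 over the 12 libraries left out, in only 9 of which Hbb-bh1 had enough reads to be tested. At P7 it was 4 and became 2 of 5 with the near-identical pairs summed, which removes 2 genes, and it was 4 without any one library. At E13.5 the sign turned for Hba-a1 without spinal cord replicate 3 (0.0045) and for Hbb-bs without brain replicate 2 (0.0147) or spinal cord replicate 3 (0.0744), the ranges over libraries left out being -0.53 to 0.0045 and -0.58 to 0.0744. With the replicate block 0 and 4 globins were called for region at E13.5 and P7, and 1595 and 1212 of all genes. The block changed no call of a globin, and Hba-x at E13.5 had a limma adjusted p of 0.0448 but stayed under 2-fold. The block gave each replicate number a shift common to both ages, so it is no test of a pairing within an age. Same-numbered brain and spinal cord libraries had deviations correlated at 0.31, 0.082 and 0.41 at E13.5 and 0.013, 0.025 and 0.044 at P7. Differently numbered ones ran from -0.44 to 0.20 at E13.5 and from -0.057 to 0.063 at P7. A pairing of the regions within E13.5 was not tested. With 1 library left out the embryonic share of beta-like reads differed between the regions by -10.1 to 2.05 percentage points, and the summed globin level by -0.62 to -0.059 (log2) at E13.5, where as a share of reads it was 0.0248, and 1.52 to 1.97 at P7. Of all genes 2990 were called for the change of the region difference, and 3715 without E13.5 spinal cord replicate 3. TMM rescaling moved the calls for that change from 1220 higher and 1770 lower to 1500 and 1226. For age in brain it moved them from 2011 and 3057 to 2449 and 2511. Depth limits Hbb-bh1, with 30 reads in all of E13.5 brain, and the defining erythroid genes.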

Other observations

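Of 6 other globin genes 2 had enough reads to be tested. Cygb, the cytoglobin of fibroblast-like cells and neurons, stood at 7.72 ± 0.23 CPM (mean ± SD, n = 3) in embryonic brain, 6.04 ± 1.80 in embryonic cord, 13.0 ± 1.30 in postnatal brain and 19.9 ± 2.23 in postnatal cord. It was called higher at P7 in spinal cord (1.67, limma adjusted p = 2.73e-06). Ngb, the neuroglobin of neurons, stood at 0.41 ± 0.12 and 0.60 ± 0.43 CPM at E13.5 and at 3.22 ± 0.41 and 2.79 ± 0.31 CPM at P7 in brain and spinal cord. It was called higher at P7 in both regions (2.04 and 1.66, limma adjusted p = 1.84e-05 and 7.58e-05). Hbb-bh2, Hbq1a, Hbq1b and Mb (myoglobin) were near 0 and were not tested.

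Platelet and megakaryocyte markers, another product of blood, were examined in the same way. Of 6 listed genes 3 were tested. Pf4, the platelet factor, was called lower in E13.5 brain than in E13.5 spinal cord (-1.56, limma adjusted p = 0.0004), and lower at P7 in spinal cord (-2.08). Gp1bb, which lies next to a septin gene of the nervous system, was called higher at P7 in brain (3.02) and spinal cord (3.47). Itga2b was called lower at P7 in brain (-1.43) and spinal cord (-1.05).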
